A study of Mus musculus with 8 samples.

Results

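The cytosolic ribosome of mammalian cells is built from a small (40S) and a large (60S) subunit, and its protein components are encoded by the *Rps* and *Rpl* gene families. In the expression table, 80 of 14608 genes carried the symbol of such a protein (*Rps* or *Rpl* with a number and at most a short suffix, *Rplp0*, *Rplp1*, *Rplp2* or *Rpsa*, without the *Rps6k* kinases), and all 80 were analysed. By symbol, 32 of them belong to the 40S and 48 to the 60S subunit. The rule used names alone and no measured value, but the family was chosen with earlier results of these data known.

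Ribosomes hold nearly all of these proteins in equal number, so the RNAs of the family are abundant and tend to change together. Most of these mRNAs begin with a cytidine followed by an unbroken stretch of pyrimidines, the 5′ terminal oligopyrimidine (TOP) motif, through which mTOR signalling controls how much of them is translated. Reduced dosage of single ribosomal proteins causes Diamond-Blackfan anaemia, and unassembled RPL5 and RPL11 bind MDM2, which restrains p53.

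The study asked how a *Mib1* missense allele and a *Gata6* null allele act together in the developing outflow tract (OFT), the vessel stem of the embryonic heart in which the semilunar valves form. MIB1 is a ubiquitin ligase that activates NOTCH ligands, and GATA6 is a zinc-finger transcription factor of the heart. Poly(A) RNA of OFT was sequenced at embryonic day 11.5 from 4 control libraries and 4 *Mib1V943F/+ Gata6STOP/+* libraries. *Mib1V943F* was described as dominant negative, the controls are labelled WT and Control with no further genotype, and neither single heterozygote was among the 8 libraries, so the effects of the 2 alleles cannot be told apart. The series text gives pools of 3 individuals and the study's methods another pool size, so the number of embryos per library is not settled. p-values measure the spread between these 8 pools.

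Levels are given as CPM, the share of a library's reads that a gene holds, scaled by the authors. In replicates 1 to 4, *Gata6* stood at 236, 279, 271 and 261 CPM in the control libraries, and the 4 mutant libraries held 213, 284, 276 and 224 CPM. Its log2 fold change (mutant minus control) was -0.08 ± 0.10 (SE, as after every log2 fold change below), and the groups overlapped. *Mib1* was at 121.8 ± 15.6 CPM in control and 127.5 ± 6.62 CPM in mutant libraries (SD, n = 4 each). RNA of neither gene separated the groups. A missense allele such as that of *Mib1* need not change the RNA level. The *Gata6* allele is described as null, which by itself does not fix the RNA level either, so these values do not test the genotypes. The libraries are called control-labelled and mutant-labelled, and every direction below rests on the labels.

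Libraries held between 10669420 reads on listed genes (control-labelled replicate 2) and 30469165 (mutant-labelled replicate 3). The lowest read number of any ribosomal protein gene in any library was 697, so no gene of the family was near the limit of detection. All 14 cardiomyocyte, 8 smooth muscle and 10 cushion mesenchyme markers looked for were listed, and of 8 pharyngeal epithelium markers 2 were. All 14 cardiomyocyte markers had a log2 fold change below 0 (49.6% of all genes) with a median of -0.35. In limma 13 were lower at an unadjusted p under 0.05 (background 6.62%) and 0 passed after adjustment. Summed cardiomyocyte markers ran from 29537 to 34770 CPM in control-labelled and from 23345 to 27631 CPM in mutant-labelled libraries. Of 8 smooth muscle markers 3 were lower and 1 higher (background 5.45%), and of 11 endocardial and endothelial markers 2 were lower and 0 higher. The 10 cushion mesenchyme markers had 0 at that p and a median of 0.07. Summed erythroid markers ran from 1853 to 3773 and from 1556 to 5777 CPM. The part of cell composition in the values below was not tested, and in bulk tissue fewer cells of a type and less RNA per cell cannot be told apart.

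To show the pyrimidine stretch at the start of these genes, RefSeq start sites were read from build GRCm38.p6 for 59 of the 80 genes (70 start sites). The 8 windows below span 12 bases before to 18 bases from the annotated start, 5′ to 3′ on the gene's strand, and capitals mark the longest run of C and T. They were chosen after values were seen: *Rplp2*, *Rpl28*, *Rpl35* and *Rpl38* had fold changes at the low end, *Rpl22l1* at the high end, *Rps27* near 0, and *Rpl12* and *Rpl7l1* have shorter runs.
Rplp2 (chr7:141447639-141447668, plus strand): gtcagcgTCTTCCTTTCgccgccggacgcc
Rpl28 (chr7:4792953-4792982, plus strand): cctctcgtgTCTCTCTTTCCgtctccggcc
Rpl35 (chr2:39005114-39005143, minus strand): ccccgCCCTTTCCTCTTTCTCTCgaaccag
Rpl38 (chr11:114668568-114668597, plus strand): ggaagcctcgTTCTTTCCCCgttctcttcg
Rps27 (chr3:90213631-90213660, minus strand): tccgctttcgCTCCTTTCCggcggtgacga
Rpl22l1 (chr3:28805496-28805525, plus strand): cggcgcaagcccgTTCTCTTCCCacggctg
Rpl12 (chr2:32961700-32961729, plus strand): ggagcaggatccgTCTTTTCggctttcggc
Rpl7l1 (chr17:46782639-46782668, minus strand): aggCTgcgcaagcgcagtagctgaagcacc

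Between 15 bases before and 25 bases after the start, a run of at least 8 pyrimidines was found at 44.3% of the family's start sites and at 15.3% of all 32851 RefSeq start sites. Runs of at least 10 were found at 31.4% and 6.91%, and CTTTCC on the gene's strand in the same window at 12.9% and 1.92%. CCGGAAG, the core bound by ETS factors such as GABPA, was present on either strand within 250 bases before to 50 bases after the start at 35.7% and 8.86%. The fold changes of genes with and without a run were close together. The 30 genes with a run of at least 8 had a median log2 fold change of -0.05, with 26 of 30 below 0, and the 29 genes without one had a median of -0.06, with 23 of 29 below 0. As *Rplp2* and *Rpl22l1* show, similar runs stood at genes with fold changes near both ends of the range, although that of *Rpl22l1* turned to -0.0057 with the GC trend removed.

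The family's level was then compared between libraries. The 80 genes took 2.94%, 3.57%, 3.59% and 3.19% of all CPM in control-labelled replicates 1 to 4. In mutant-labelled replicates 1 to 4 they took 3.24%, 3.36%, 3.23% and 3.01%. The means were 3.323% ± 0.312 and 3.21% ± 0.145 (SD, n = 4 each), and all 4 mutant-labelled values lay within the range of the control-labelled ones. CPM of 60S genes divided by CPM of 40S genes was 1.459 ± 0.00836 in control-labelled and 1.454 ± 0.0102 in mutant-labelled libraries.

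**Figure D1:**
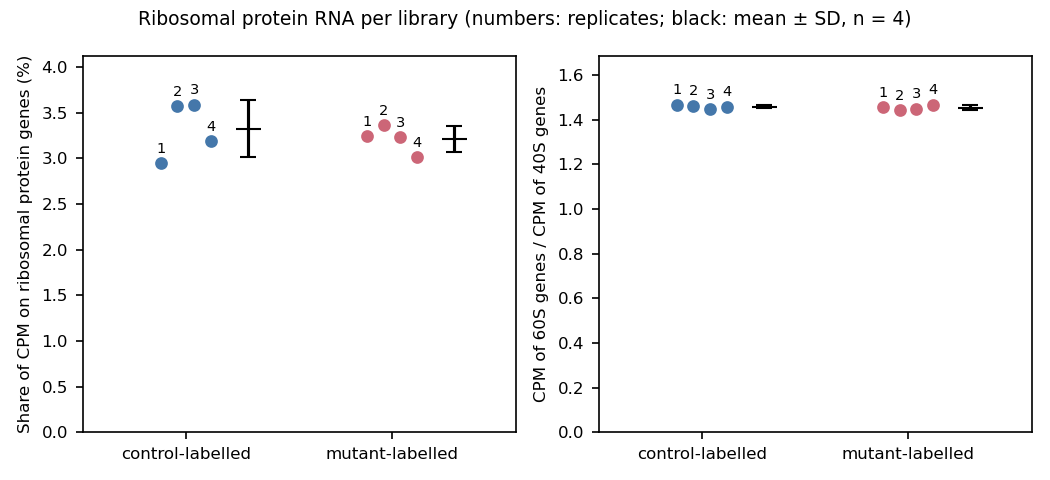
Left, percent of all CPM on the 80 ribosomal protein genes in each library; right, summed CPM of 60S genes over summed CPM of 40S genes; numbers are replicates and black marks are means ± SD (n = 4). The mutant-labelled shares (3.01% to 3.36%) lie inside the control-labelled range (2.94% to 3.59%), and the ratio stays between 1.44 and 1.47.

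Single genes were tested with limma on log2(CPM + 0.5), with Benjamini-Hochberg adjustment over all 14608 genes. At an adjusted p under 0.05, limma called 0 of the 80 genes, beside a background of 0.0% of all genes. The smallest adjusted p was 0.333 in the family (*Rps4l*) and 0.124 over all genes. At an unadjusted p under 0.05, 4 of the 80 were lower in mutant-labelled libraries (background 6.62%) and 0 were higher (background 5.45%). Both shares of the family were under the background. The 4 were *Rpl36*, *Rplp2*, *Rps4l* and *Rpl38*.

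The signs were less even than the calls. Of the 80 fold changes, 67 were below 0, beside 49.6% of all genes. The median was -0.07 on the log2 scale, beside 0.00 over all genes, and the range was -0.31 (*Rpl36*) to 0.13 (*Rpl21*). For 75 of the 80 genes the 95% interval lay within ±0.5, beside 75.1% of all genes. The median was -0.07 for the 40S genes (29 of 32 below 0) and -0.06 for the 60S genes (38 of 48 below 0). The genes were measured in the same 8 libraries and moved together between them, so they are not independent of each other.

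**Figure D2:**
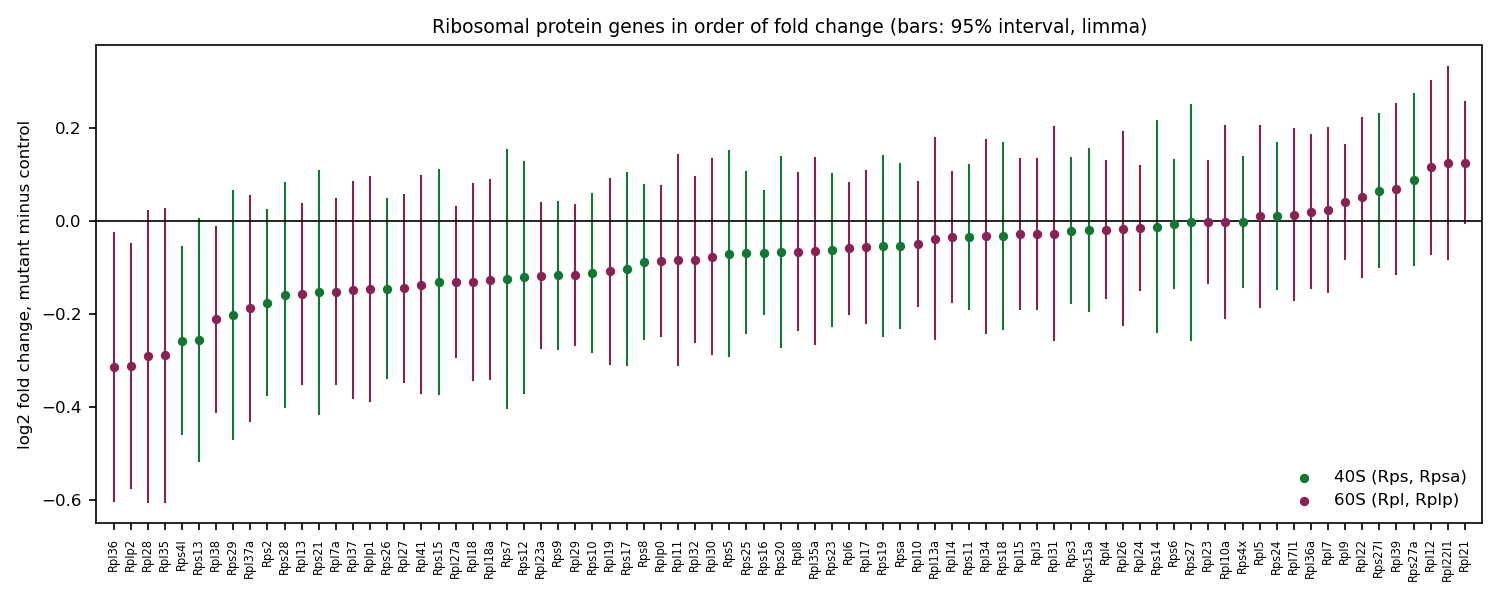
Log2 fold change of log2(CPM + 0.5), mutant minus control, for the 80 ribosomal protein genes in order of size (points) with 95% intervals from limma (bars), green for 40S and purple for 60S genes. Of the 80 points, 67 lie below 0 and the median is -0.07; the points run from -0.31 to 0.13.

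*Rpl36* (chr17:56613416-56614243, 4 exons), a small 60S protein, had the lowest fold change. It was at 142, 236, 191 and 152 CPM in control-labelled and at 146, 136, 153 and 134 CPM in mutant-labelled libraries. Control-labelled replicates 2 and 3 were high, the other 6 libraries were close together, and the groups overlapped. Its log2 fold change was -0.31 ± 0.13 (limma, SE, unadjusted p = 0.0358, adjusted p = 0.398). It was -0.17 without control-labelled replicate 2 and -0.19 with the trend of each library over GC content removed.

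*Rplp2*, *Rplp1* and *Rplp0* form the stalk of the 60S subunit, which recruits the elongation GTPases, and *Rpl12* lies at its base. *Rplp2* was at 224, 340, 266 and 238.4 CPM in control-labelled and at 227, 181, 227 and 218 CPM in mutant-labelled libraries. The groups overlapped, since control-labelled replicate 1 was below mutant-labelled replicates 1 and 3. The log2 fold change of *Rplp2* was -0.31 ± 0.12 (limma, adjusted p = 0.365), and -0.19 without control-labelled replicate 2.

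Its partner *Rplp1* was at 436, 595, 594 and 456 CPM in control-labelled and at 457, 524, 461 and 425 CPM in mutant-labelled libraries, with a log2 fold change of -0.15 ± 0.11 (limma, adjusted p = 0.587). *Rplp0*, the anchor of the stalk and the most abundant gene of the family (1164 CPM, rank 63 of all genes), was at 1199 ± 84.2 CPM in control-labelled and 1129 ± 47.7 CPM in mutant-labelled libraries (SD, n = 4 each). *Rpl12* lay on the other side of 0, at 115, 107, 136 and 116 CPM against 137, 135, 127 and 114 CPM, with a log2 fold change of 0.12 ± 0.09. The groups overlapped for all 4 stalk genes, and only *Rplp2* reached an unadjusted p under 0.05 in limma.

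*Rps4l* (chr6:148354656-148355598), annotated in GENCODE as a transcribed processed pseudogene with 1 exon, has the parent gene *Rps4x*. It was at 83.4, 105, 98.5 and 82.1 CPM in control-labelled and at 81.7, 68.2, 79.8 and 77.7 CPM in mutant-labelled libraries. All mutant-labelled values were below all control-labelled ones. Its log2 fold change was -0.26 ± 0.09 (limma, adjusted p = 0.333). The exact permutation test gave its smallest possible p (0.0286, two-sided, 70 relabellings), as it does for any gene whose groups do not overlap. With the GC trend removed the fold change was -0.13. RSEM divides reads between near-identical transcripts by estimate, so values of this copy are uncertain.

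*Rps2*, a 40S protein of the mRNA entry channel, was the only other gene of the family whose groups did not overlap. It was at 207, 257, 205 and 206 CPM in control-labelled and at 203, 166, 202 and 202 CPM in mutant-labelled libraries. Mutant-labelled replicate 2 was low and control-labelled replicate 2 high, and the other 6 libraries lay between 202 and 207 CPM. The log2 fold change was -0.18 ± 0.09 (limma, adjusted p = 0.454). It was -0.10 without either of these libraries in turn, and also with the GC trend removed. Groups in which the mutant-labelled libraries were all lower were seen in 2 of 80 genes (background 3.9%), and groups in which they were all higher in 0 of 80 (background 3.2%).

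*Rpl38*, a 60S protein known for a role in translation of *Hox* mRNAs, was at 120, 162, 147 and 139 CPM in control-labelled and at 122, 114, 136 and 118 CPM in mutant-labelled libraries. Its log2 fold change was -0.21 ± 0.09 (limma, adjusted p = 0.402), or -0.13 with the trend over transcript length removed, and the groups overlapped. *Rpl28*, a 60S protein that budding yeast lacks, was at 262, 481, 351 and 319 CPM in control-labelled and at 289, 261, 308 and 271 CPM in mutant-labelled libraries. Its highest library, control-labelled replicate 2, was 1.84 times its lowest, and its log2 fold change was -0.29 ± 0.14 (limma, adjusted p = 0.439). Without that library it was -0.13. *Rpl38* and *Rps2* are named because of their counts above, after values were seen, and *Rpl28* by its fold change.

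At the high end, *Rpl21*, a 60S protein, was at 86.4, 87.9, 87.1 and 94.8 CPM in control-labelled and at 95.8, 98.9, 94.7 and 99.5 CPM in mutant-labelled libraries. Only control-labelled replicate 4 and mutant-labelled replicate 3 overlapped, and both groups were tight. The log2 fold change was 0.13 ± 0.06 (limma, adjusted p = 0.428). *Rpl22l1*, the paralogue of *Rpl22*, was at 71.3, 72.8, 70.8 and 86.6 CPM in control-labelled and at 78.0, 95.8, 72.5 and 83.2 CPM in mutant-labelled libraries. Its log2 fold change was 0.13 ± 0.10 (limma, adjusted p = 0.588), the groups overlapped, and with the GC trend removed the direction turned (-0.0057).

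The 4 paralogues in the family, *Rpl22l1*, *Rpl7l1*, *Rps27l* and *Rps4l*, were then set beside their parent genes. *Rpl36al* was also listed in the table but falls outside the symbol rule. *Rpl22* was at 276 ± 18.4 CPM in control-labelled and 287 ± 27.9 CPM in mutant-labelled libraries, with a log2 fold change of 0.05 ± 0.08. *Rpl7l1* was at 91.4 ± 4.06 and 92.7 ± 10.6 CPM (log2 fold change 0.01 ± 0.08), and *Rpl7* at 749 ± 55.9 and 761 ± 67.5 CPM (0.02 ± 0.08). *Rps27l*, a p53-responsive paralogue and the least abundant gene of the family, was at 67.6 ± 4.66 and 70.9 ± 5.30 CPM (log2 fold change 0.07 ± 0.08). *Rps27* was at 244 ± 31.6 and 244 ± 39.1 CPM, with a log2 fold change of -0.00 ± 0.12. *Rps4x* was at 819 ± 30.02 and 818 ± 31.8 CPM, again with a log2 fold change of -0.00 (± 0.06). All SDs are over n = 4. Of these 8 genes, *Rps4l* alone was among the calls at an unadjusted p.

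The 4 X-linked genes of the family are *Rpl10*, *Rpl36a*, *Rpl39* and *Rps4x*. Their log2 fold changes ran from -0.05 (*Rpl10*) to 0.07 (*Rpl39*), with a median of 0.01. *Rpl10*, a 60S protein joined late in subunit assembly, varied little between libraries, from 620 to 679 CPM. *Rpl36a* ran from 105 to 130 CPM and *Rpl39*, a short protein of the exit tunnel, from 153 to 204 CPM.

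The 5S particle genes *Rpl5* and *Rpl11*, whose free proteins bind MDM2, did not separate the groups. *Rpl5* was at 229, 248, 277 and 259 CPM in control-labelled and at 247, 302, 245 and 230 CPM in mutant-labelled libraries (log2 fold change 0.01 ± 0.09). *Rpl11* was at 365, 501, 497 and 416 CPM in control-labelled and at 408, 462, 421 and 378 CPM in mutant-labelled libraries (log2 fold change -0.08 ± 0.10). Both were high in control-labelled replicate 3 and mutant-labelled replicate 2. Of the 23 p53 target genes in the list used, 1 was higher (background 5.45%) and 3 lower (background 6.62%) at an unadjusted p under 0.05, and their median log2 fold change was -0.01. *Perp*, which encodes a desmosomal membrane protein, had the smallest p of them, at 64.97 ± 1.98 CPM in control-labelled and 55.8 ± 3.78 CPM in mutant-labelled libraries (limma, adjusted p = 0.291). Of 19 genes linked to Diamond-Blackfan anaemia, 17 were below 0 with a median of -0.08. All 19 belong to the family, where 67 of 80 genes were below 0 with a median of -0.07. Of the 19 genes, 0 reached an unadjusted p under 0.05 (background 5.45% higher and 6.62% lower). The 14 genes of the 40S head had a median of -0.07 and the 9 genes around the exit tunnel one of -0.03. These also had 0 at that threshold, beside the same background.

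Per kilobase of transcript, *Rpl41* (1085 CPM per kb), which encodes the shortest peptide of the family, *Rplp1* (988) and *Rps12* (969) were the highest. *Rpl7l1* (35.3), *Rps15a* (59.2) and *Rpl12* (99.5) were the lowest. The transcript used for *Rps15a* is 5130 bases long, since its representative transcript carries long untranslated parts, so its value per kilobase may be understated. That of *Rpl12* is 1242 bases long, of which 495 are coding. Per kilobase of coding sequence *Rpl12* was at 250 CPM, above *Rpl7a* (177), so its low place depends on the transcript used. Of the 80 genes, 75 were above 100 CPM on average, beside 15.4% of all genes, and 4 were among the 100 most abundant genes.

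The family varied between libraries in a shared pattern. Control-labelled replicates 2 and 3 lay above the mean over libraries (66 and 75 of 80 genes), and control-labelled replicate 1 and mutant-labelled replicate 4 below it (1 and 4 of 80 genes above). Control-labelled replicate 2 or 3 was the highest library for 61 of 80 genes, beside 31.8% of all genes, and control-labelled replicate 1 or mutant-labelled replicate 4 the lowest for 64 of 80, beside 18.1%. The SD was larger in the control-labelled group for 66 of 80 genes, beside 47.8% of all genes. The first component of the 80 genes held 59.8% of their variance.

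**Figure D3:**
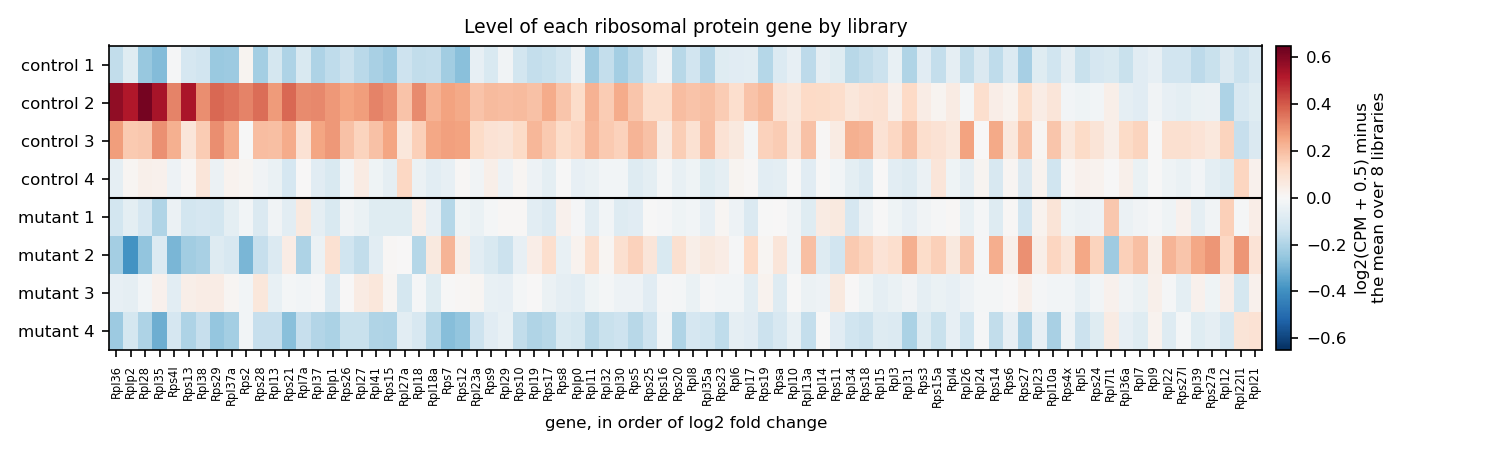
Log2(CPM + 0.5) minus the mean over 8 libraries (colour) for each ribosomal protein gene (columns, in order of log2 fold change) in each library (rows, the line parts the groups). Control-labelled replicates 2 and 3 are high over most columns (66 and 75 of 80 genes above their mean, beside 49.9% and 50.4% of all genes). Mutant-labelled replicate 2 is low at the left end and high at the right end.

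The number of genes at an unadjusted p under 0.05 changed with the library left out. Without control-labelled replicate 1, 22 genes were lower at that p (background 6.28%), and without control-labelled replicate 2 none was (background 4.59%). The median log2 fold change was -0.12 and -0.02 in these 2 fits. The lower count was 1 without control-labelled replicate 3 (background 4.65%), 1 without mutant-labelled replicate 2 (background 5.46%) and 2 without mutant-labelled replicate 4 (background 5.97%). Without control-labelled replicate 3, 52 of 80 fold changes were below 0 (background 49.8%), and without mutant-labelled replicate 4, 55 were (background 49.2%). Higher genes at that p numbered 1 without control-labelled replicate 3 (*Rpl12*, background 3.37%) and 1 without control-labelled replicate 4 (*Rpl21*, background 7.31%). *Rpl21* was also the 1 higher gene when libraries were scaled to equal totals (background 7.95%), with the length trend removed (5.64%) and with the GC trend removed (4.68%). With the replicate number as a block, 3 genes were lower (background 5.1%).

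Other gene classes were set beside the family in each library. The 206 genes outside the family with a transcript under 1000 bases and a mean over 50 CPM had a median log2 fold change of -0.10, with 72.3% below 0. Their library medians were 0.18 in control-labelled replicate 2, 0.10 in replicate 3 and -0.10 in mutant-labelled replicate 4, where the family's were 0.17, 0.15 and -0.13. In control-labelled replicate 1 these short genes stood at -0.055 and the family at -0.135. In mutant-labelled replicate 2 the signs differed, at -0.037 and 0.040. In control-labelled replicate 4 and mutant-labelled replicates 1 and 3 the short genes stood at -0.007, -0.032 and -0.025, and the family at -0.026, -0.030 and -0.019. With each library's trend over transcript length removed, the family's median log2 fold change was -0.02. Genes outside the family with a GC content over 55% had medians of 0.17 in control-labelled replicate 2 and -0.16 in mutant-labelled replicate 2, where the family stood at 0.17 and 0.04. With each library's trend over GC removed, *Rpl38*, *Rplp2* and *Rps4l* were lower at an unadjusted p (background 6.45%), without *Rpl36*. The part of RNA length, GC content and library preparation in the family's levels was not tested beyond these values.

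**Figure D4:**
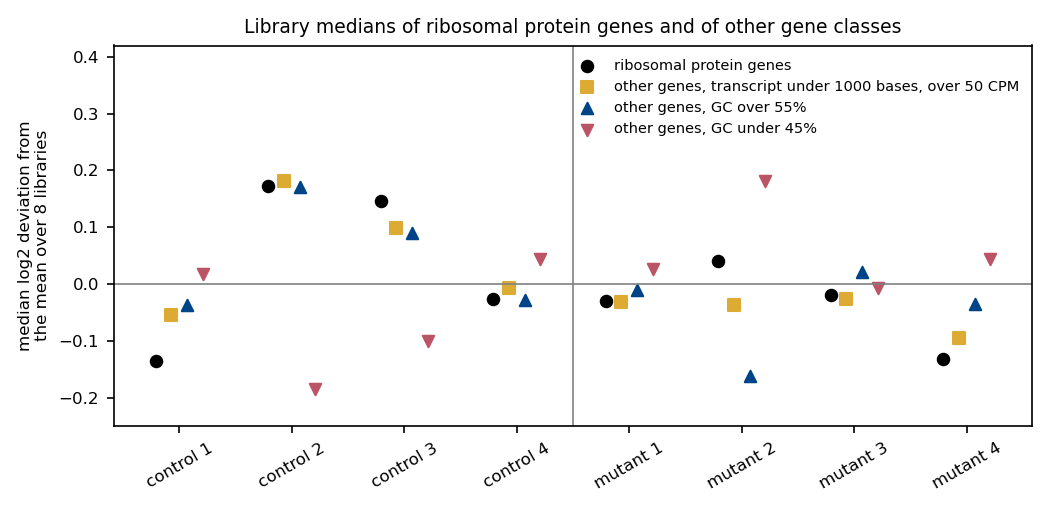
Median log2 deviation from the mean over 8 libraries (y axis) of the 80 ribosomal protein genes and of other genes grouped by transcript length or GC content, per library (x axis, the line parts the groups). In control-labelled replicate 2 the family (0.17), short abundant genes (0.18) and GC-rich genes (0.17) are all high.

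Within the family, the fold change was lower at higher GC content (r = -0.49 across 80 genes, a description only, since the points share libraries). The 14 genes with a GC content of at least 55% were all below 0, with a median log2 fold change of -0.13. Of the 27 genes under 50%, 16 were below 0 with a median of -0.02. With log2 transcript length r was 0.23 and with mean log2 CPM 0.09.

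**Figure D5:**
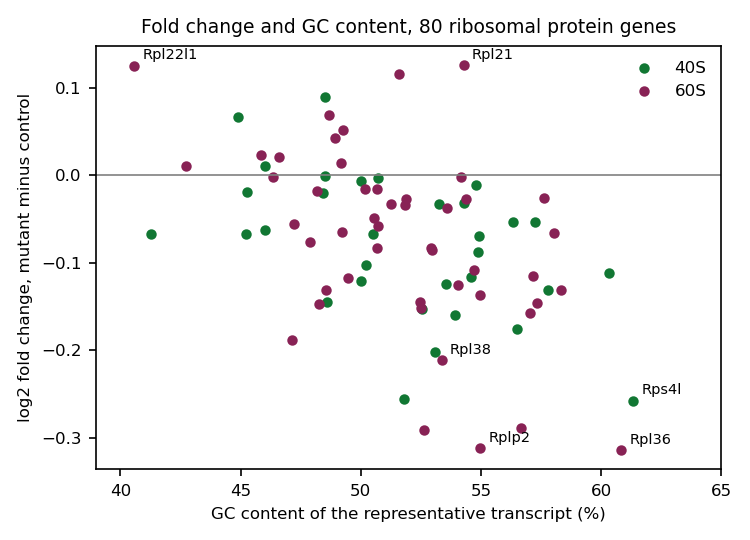
Log2 fold change, mutant minus control (y axis), against GC content of the representative transcript (x axis, percent) for the 80 genes, green for 40S and purple for 60S. The 14 genes with at least 55% GC all lie below 0, and r across the 80 genes is -0.49.

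Genes that build ribosomes, from lists chosen with earlier results known, had medians above 0, also under every alternative run. Of 49 genes for 40S assembly, 7 were higher at an unadjusted p under 0.05 (background 5.45%) and 0 lower (background 6.62%), with a median log2 fold change of 0.06. Of 50 genes for 60S assembly, 4 were higher and 1 lower, with a median of 0.05. *Noc3l*, a 60S assembly factor, was at 22.1 ± 0.807 CPM in control-labelled and 27.0 ± 1.83 CPM in mutant-labelled libraries (SD, n = 4 each, log2 fold change 0.28 ± 0.08, limma, adjusted p = 0.258), and all mutant-labelled values were above all control-labelled ones. *Utp18*, of the small subunit processome, was at 32.4 ± 1.181 and 37.2 ± 0.707 CPM (log2 fold change 0.20 ± 0.07, limma, adjusted p = 0.315), also without overlap. With the GC trend removed these fold changes were 0.18 for *Noc3l* and 0.09 for *Utp18*. None of these passed the threshold after adjustment.

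TOP transcripts that encode no protein were higher in 3 of 7 listed snoRNA host genes at an unadjusted p (background 5.45%). *Snhg5* was at 31.1, 33.3, 34.0 and 37.7 CPM in control-labelled and at 44.3, 47.1, 36.3 and 40.4 CPM in mutant-labelled libraries (log2 fold change 0.30 ± 0.09, limma, adjusted p = 0.290). Mutant-labelled replicate 3 lay inside the control-labelled range, and the other 3 lay above it. Of 28 translation elongation and other TOP mRNAs, 0 reached that p in either direction (background 5.45% higher and 6.62% lower), with a median of -0.01. The smallest p among them was that of *Npm1*, a nucleolar chaperone of ribosome assembly (749 ± 68.9 and 842 ± 56.1 CPM, log2 fold change 0.17 ± 0.08, limma, adjusted p = 0.428). In the mTOR pathway list, 3 of 34 genes (8.82%) were lower, near the background of 6.62%, among them *Eif4ebp1*, the translational repressor that mTOR phosphorylates (93.8 ± 11.5 and 78.4 ± 3.71 CPM, log2 fold change -0.25 ± 0.09, limma, adjusted p = 0.322).

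Among the other lists, 11 of 79 mitochondrial ribosomal protein genes were lower at an unadjusted p (13.9%, background 6.62%) and 0 higher (background 5.45%), with a median of -0.09. *Snu13* was the only 1 of 16 snoRNP and nucleolar protein genes at an unadjusted p under 0.05. It was higher (6.25% of the list, background 5.45%), its groups overlapped, and its adjusted p was 0.414 (limma). Of 15 RNA polymerase I genes, 0 reached an unadjusted p under 0.05 (background 5.45% higher and 6.62% lower). *Taf1d* came closest, with a log2 fold change of 0.18 ± 0.09. Among ribosomal protein genes outside the symbol rule, *Fau*, which encodes a ribosomal protein fused to a ubiquitin-like protein, had a log2 fold change of -0.13 ± 0.10, and *Rps3a1* and *Rack1* had log2 fold changes of 0.03 ± 0.07 and -0.01 ± 0.08.

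Reads of ribosomal protein genes can also match their many processed copies, of which 300 carry a ribosomal protein symbol in GENCODE. Copies under other symbols were not counted, here or in the sums that follow. In the table, 32 entries were named as such copies, and their summed CPM was between 2.50% and 2.996% of the family's. Of these, 12 had a highest value over 5 times their lowest, and 7 were at 0 in at least 1 library, while 0 of the 80 genes varied by more than 2 times between libraries. *Rps13-ps2* was at 57.3, 0, 28.9 and 35.7 CPM in control-labelled replicates 1 to 4, where *Rps13* was at 227, 353, 258 and 246 CPM. In control-labelled replicate 2 the copy was at 0 and *Rps13* at its highest. This pair is an example from outside the naming rule. Some other copies, such as *Rpl23a-ps3* and *Rpl10-ps3*, were also at 0 there. Others went the other way and were highest in that library, among them *Rps16-ps2* (95.8 CPM) and *Rps23-ps1* (177 CPM). That library was the highest for 42 of the 80 genes, beside 22.1% of all genes. How reads were divided between *Rps13* and its copy was not tested. Entries for 4 copies of *Rpl35a* held the same value in each of the 8 libraries.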

How the data were processed

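OFT RNA of 4 control-labelled and 4 mutant-labelled libraries was analysed. Per the labels, poly(A) RNA was prepared with a strand-specific kit. Adapters were trimmed by the authors (cutadapt 1.18), expression was estimated with RSEM 1.2.3 on GRCm38, and TMM factors came from their use of edgeR 3.32.1. The deposited table gives CPM after TMM scaling. The study's methods name a filter of 1 CPM in at least 3 samples, while every listed gene reached 1 CPM in at least 4 libraries. Of the columns 0 were left out, and 13 genes had no symbol. Every value was a whole multiple of 1 read (tolerance 1e-06), and this step gave the depth, from 10669420 to 30469165 reads on listed genes.

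Control and mutant libraries were compared by limma (version 3.58.1, R 4.3.3) across all genes, without further filter. The scale was log2(CPM + 0.5), p-values were adjusted after Benjamini and Hochberg, and the threshold was 0.05. Fold changes on this scale slightly understate those of low genes. Single genes also had an exact permutation test over 70 relabellings. The script was checked on simulated data. Named genes were the paralogues with their parents, the 3 highest and 3 lowest fold changes, the 3 smallest p-values in each direction, the 3 highest and 3 lowest levels per kb of transcript, X-linked, stalk and 5S genes, and outside the family *Gata6*, *Mib1*, ribosomal protein genes outside the symbol rule (1 is not reported here) and the gene with the smallest p of each process list (none of the marker lists). The rule as first fixed took up to 3 genes of every list, 58 genes outside the family, and was narrowed to 14 after values were seen, to shorten the account of sign changes (15 genes in place of 21). Members and lists were chosen with earlier results of these data known. Transcript length, GC and exons came from 1 representative transcript per gene in GENCODE M21, start sites from RefSeq. Alternatives were other pseudocounts, a filter, other scalings, length and GC trends, a replicate block and leaving out each library. Models of whole counts were not run.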

Additional observations from a re-analysis of the deposited data

Results flagged for a closer look

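In 8 of the 82 groups of 4 libraries examined, 1 library stood apart from the other 3, and chance alone marks about 1 in 20 such groups. The number of groups follows from the genes named, a choice narrowed after values were seen, and under the wider rule it was 10 of 170. *Rps4x* was at 866 CPM in mutant-labelled replicate 2, above the other mutant-labelled libraries. *Rpl36a*, at 130 CPM, and *Rps3a1*, at 938 CPM, were also highest in that library. *Rpl7* was at 832 CPM in control-labelled replicate 3, and *Rpl22l1*, at 86.6 CPM, and *Snu13*, at 81.2 CPM, were highest in control-labelled replicate 4. *Rps2* was at 257 CPM in control-labelled replicate 2, above the other control-labelled libraries, and at 166 CPM in mutant-labelled replicate 2, below the other mutant-labelled libraries.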

How the results depend on the processing

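No ribosomal protein gene passed an adjusted p of 0.05 in limma under any of the alternatives run, and the median log2 fold change of the family stayed below 0, between -0.12 and -0.02. It was -0.02 with the length trend removed, -0.05 with the GC trend removed and -0.04 with each library scaled to equal totals. With the replicate number as a block, 3 genes were lower at an unadjusted p and 0 higher. Same-numbered libraries did not deviate together (r = 0.03, -0.19, 0.03 and -0.05 for numbers 1 to 4), so the numbers were not used to pair them. The planned edgeR and DESeq2 tests were left out, although every value in all 8 libraries was a whole multiple of 1 read. A check of the units took the smallest value of each library as 1 read. For 5 of the 8 libraries it was more, so the check did not accept whole reads there.

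With 1 library left out, 0 to 22 genes were lower and 0 to 1 higher at an unadjusted p. Leaving out control-labelled replicate 1 gave 22 lower genes, replicate 2 gave 0 and replicate 3 gave 1; among the mutant-labelled libraries, replicate 2 gave 1 and replicate 4 gave 2. Genes with mutant-labelled libraries all below numbered 2 to 11 (4.78% to 7.35% of all genes), and all above 0 to 1 (4.06% to 7.21%). The 11 were seen without control-labelled replicate 1 (5.75% of all genes), and the other counts were 2 or 3. *Rpl21* was the 1 gene higher at an unadjusted p when scaled to equal totals, with the length trend removed and with the GC trend removed. Genes with all mutant-labelled libraries below numbered 0 when scaled to equal totals (2.87% of all genes), 1 with upper-quartile scaling (3.78%) and 1 with the GC trend removed (3.72%). Those all above numbered 2 when scaled to equal totals (4.65%), 1 with upper-quartile scaling (3.29%) and 2 with the length trend removed (3.33%).

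Several named genes changed sign, most of them near 0 but also *Rpl22l1* (0.13), and the cause was not tested. Scaled to equal totals, log2 fold changes were 0.0032 for *Rps15a*, 0.021 for *Rps4x*, 0.019 for *Rps27* and 0.013 for *Rack1*. With the length trend removed they were 0.0017 for *Rpl10*, 0.039 for *Rps4x*, 0.083 for *Rps27* and 0.0071 for *Rack1*. With the GC trend removed they were -0.0087 for *Rps27l*, -0.0057 for *Rpl22l1*, -0.036 for *Rpl7*, -0.095 for *Rpl5*, -0.026 for *Rpl36a* and 0.0036 for *Rps27*. With 1 library left out, the range was -0.074 to 0.026 for *Rps15a*, -0.014 to 0.094 for *Rpl22*, -0.029 to 0.022 for *Rps4x*, -0.037 to 0.075 for *Rpl7*, -0.071 to 0.060 for *Rpl5* and -0.067 to 0.014 for *Rpl3*. It was -0.042 to 0.093 for *Rpl7l1*, -0.028 to 0.066 for *Rpl36a*, -0.0027 to 0.11 for *Rpl39*, -0.10 to 0.067 for *Rps27*, -0.071 to 0.030 for *Rack1* and -0.023 to 0.059 for *Rps3a1*. With 4 libraries per group, the median SE of the 80 genes was 0.09 on the log2 scale, and every member had at least 697 reads in each library.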
